A study of Mus musculus with 7 samples.

Results

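The gene expression of wild-type mouse splenic B cells was described from 4 arrays of a series of 7. These are the arrays labelled wild type, replicates 1 to 4, and they were chosen by label, before any value entered. The mice were of the FVB strain with no transgene, and the labels state neither a treatment nor an age or sex. B cells were taken from the spleen with a magnetic isolation kit and their total RNA was hybridised to Affymetrix arrays. The design text counts mice, so each array was taken as 1 mouse, which the labels do not say in so many words. The other 3 arrays, from Eµ-miR-155 transgenic mice, were not read here, though they may have shared the authors' normalization. No groups were compared and no test was run, so every value is a description with its spread over 4 arrays.

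Mature B cells wait in the spleen as small resting lymphocytes. Each carries a B cell receptor, an immunoglobulin held in the membrane beside the signalling chains CD79A and CD79B, and displays peptides on MHC class II molecules to helper T cells. Most sit in follicles, drawn there by the chemokine receptor CXCR5, while marginal zone B cells line the blood sinuses. After activation a B cell can divide, enter a germinal centre or become a plasma cell that secretes antibody, and each of these states has its own genes.

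Values are in log2 units, deposited as GCRMA gave them, and GCRMA left a common lowest value of 2.17. The level of a gene is the mean log2 value of its brightest probe set over the 4 arrays, for probe sets that name a single gene, which gave 18193 genes. Of these, 635 genes (3.49%) had a level above 12, 5778 (31.8%) lay above 8 and up to 12, 2950 (16.2%) lay above 4 and up to 8, and 8830 (48.5%) were not above 4. A level of 4 was taken as background. The lowest value stood on all 4 arrays for 5288 genes. Probe sets differ in how strongly they bind their target, so these classes describe the brightness of probe sets and give no order of RNA amounts between genes. Protein-coding genes were above 4 in 9075 of 16468 cases (55.1%) and long non-coding RNA genes in 197 of 1355 (14.5%).

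**Figure D1:**
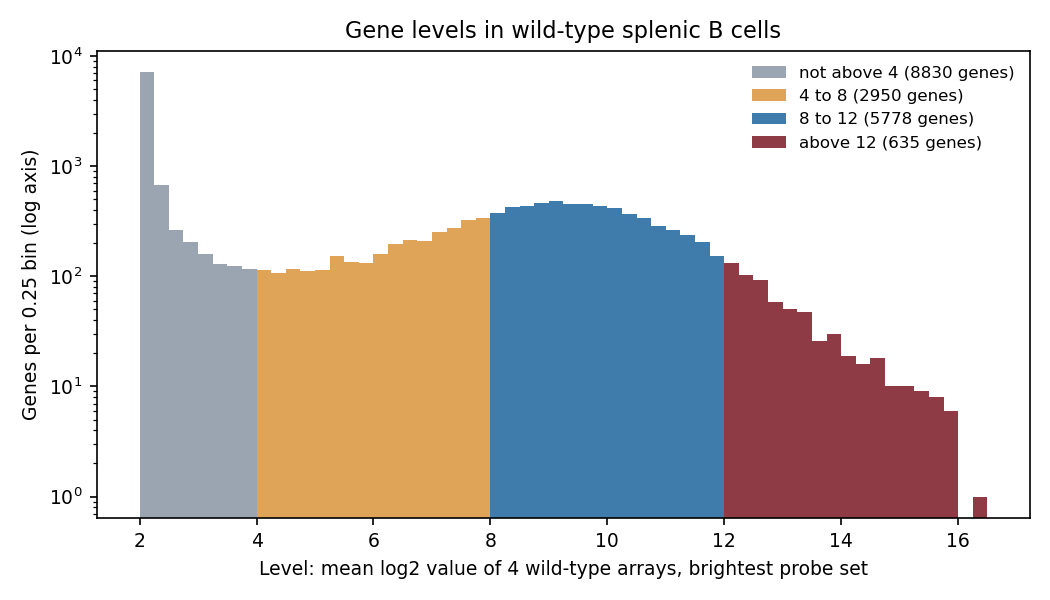
Histogram of the levels of all 18193 genes (mean log2 value of 4 wild-type arrays, bins of 0.25, log count axis), coloured by class. The tall bar at the left holds genes at or near the lowest value of 2.17, and the 635 genes above 12 form the right tail.

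The arrays were close to each other. Over all genes, which are not independent of each other, Pearson's r between arrays ran from 0.997 (replicates 1 and 3) to 0.998 (replicates 3 and 4). Among the 9467 genes above 4 on at least 1 array it ran from 0.984 to 0.993, and the median absolute difference between arrays from 0.0922 (replicates 2 and 4) to 0.150 (replicates 1 and 3). The median SD over 4 arrays was 0.0505 for all genes and 0.114 for the 9363 genes with a level above 4. By class it was 0.0857 for genes above 12, 0.104 at 8 to 12, 0.160 at 4 to 8 and 0 for genes not above 4. All 4 arrays placed a gene in the same class in 17327 cases (95.2%). In all, 9229 genes were above 4 on all 4 arrays, 8726 on none and 238 (1.31%) on some arrays only. Between 9319 and 9366 genes were above 4 on each array.

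The label of B cells was checked against 4 defining genes. Cd79a, which encodes the CD79A chain of the receptor, stood at 14.74, 14.71, 14.79 and 14.66 on replicates 1 to 4. Cd79b, for its partner chain, stood at 15.26, 15.17, 15.31 and 15.25, and Ms4a1, which encodes CD20, at 14.44, 14.59, 14.58 and 14.75. These arrays were alike for all of them, and replicate 1 was the lowest by a small margin for Ms4a1. Cd74, the invariant chain that guards the peptide groove of MHC class II, stood at 15.13, 15.03, 15.14 and 14.96. All 4 genes were above 12 on every array.

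Defining genes of most other cell types were at or near the lowest value. Among 15 T cell markers measured, 12 were not above 4, and the receptor chains Cd3d, Cd3e and Cd3g were at 2.17 on all 4 arrays. The mean of the list was 3.55 to 3.63 per array, and its 3 members above 4 were Cd2 (11.71), an adhesion gene that B cells also express, Lat (6.36) and Cd8a (5.71), whose partner Cd8b1 was at 2.17. Of 11 natural killer cell markers 9 were not above 4, Ncr1 and Eomes at 2.17, and the list mean was 3.07 to 3.13. The exceptions, Prf1 and Tbx21, lay at 4 to 8. Of 11 erythroid markers 9 were not above 4, the haemoglobin gene Hba-a1 at 2.17 (list mean 3.78 to 3.83), while Car2 and Tfrc lay at 8 to 12. Of 14 endothelial and stromal markers 12 were not above 4, Cdh5 and Col1a2 at 2.17 (list mean 2.99 to 3.03), and the exceptions were Pecam1 (10.71), an adhesion molecule shared by leukocytes, and Pdgfrb (5.11). Among 12 dendritic cell markers 7 were above 4, with Siglech and Cd209a at 2.17 and a list mean of 5.40 to 5.62. The brightest of these were Ly6d (13.64) and Tcf4 (11.89), genes that B cells share with plasmacytoid dendritic cells. Itgax, Zbtb46, Bst2, Flt3 and Batf3 lay at 4 to 8, with Itgax at 6.68, 5.49, 5.59 and 6.14 on replicates 1 to 4. Macrophage, granulocyte and platelet markers differed between arrays and are described with the variable genes. In RNA from bulk cells, fewer cells of a type and less RNA per cell cannot be told apart.

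**Figure D2:**
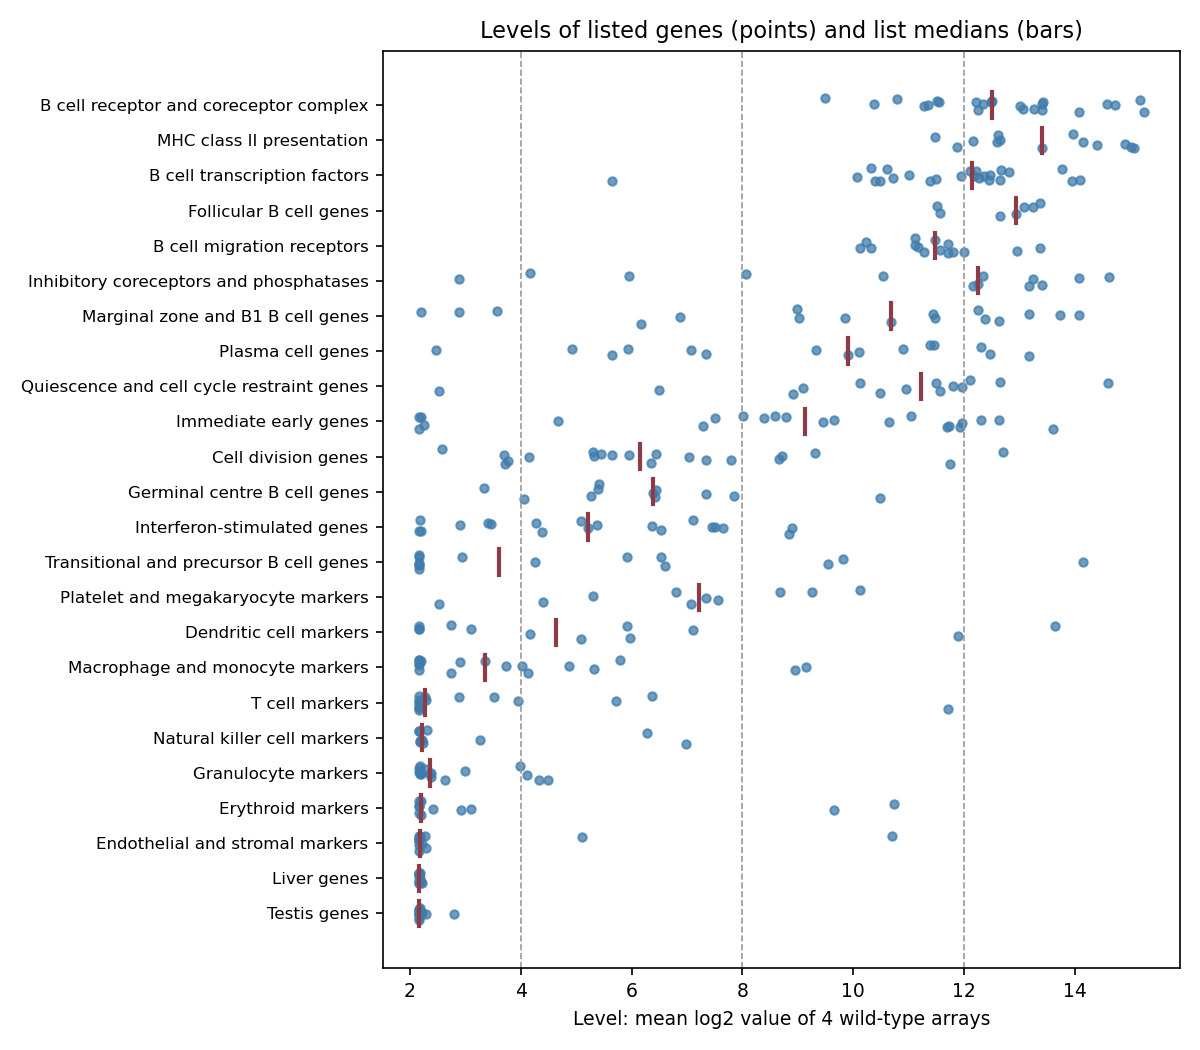
Levels of the genes of 24 lists (points, mean log2 value of 4 wild-type arrays; small vertical scatter only separates points), with the list median as a bar and the class limits 4, 8 and 12 as dashed lines. The receptor and MHC class II lists lie to the right, with medians of 12.50 and 13.42, and liver and testis genes lie at the lowest values.

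The B cell receptor and its coreceptors had the smallest spread among the B cell lists whose members were all above 4. All 23 measured genes of the list were above 8, and 16 were above 12, against 3.49% of all genes above 12. Their median SD was 0.0766 and none had a range above 1. Ighm, the constant region of IgM, stood at 15.22, 15.08, 15.29 and 15.14. Cr2, the complement receptor CD21 that lowers the threshold for activation, stood at 14.00, 14.18, 14.08 and 14.07. The arrays lay close together for both genes.

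The kinases and adaptors behind the receptor were also bright. Syk, the kinase recruited by the CD79 tails, was at 13.26 ± 0.14 (SD, n = 4, as for all errors given here), and Blk, a Src family kinase of B cells, at 13.02 ± 0.12. Btk, the kinase mutated in X-linked agammaglobulinaemia, was at 11.28 ± 0.11. Blnk, the adaptor that joins SYK to downstream enzymes, was at 13.43 ± 0.06 and Plcg2, the phospholipase it activates, at 12.25 ± 0.06. Prkcb, a protein kinase C that relays the signal to NF-kappaB, was at 13.06 ± 0.06, and Malt1 and Bcl10, which act below it, were at 11.54 ± 0.01 and 11.35 ± 0.07. Fyn was the lowest member at 9.49 ± 0.16. Ighd and Lyn were not analysed here.

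The promoter of Blnk is shown because it holds the octamer, the element that the factors OCT1 and OCT2 bind with their coactivator OBF1. The sequence is from RefSeq, build GRCm38.p6, chr19:40994172-40994471 on the minus strand, 5′ to 3′ with 250 bases before the start and 50 after it, and the capitals mark the octamer.
Blnk: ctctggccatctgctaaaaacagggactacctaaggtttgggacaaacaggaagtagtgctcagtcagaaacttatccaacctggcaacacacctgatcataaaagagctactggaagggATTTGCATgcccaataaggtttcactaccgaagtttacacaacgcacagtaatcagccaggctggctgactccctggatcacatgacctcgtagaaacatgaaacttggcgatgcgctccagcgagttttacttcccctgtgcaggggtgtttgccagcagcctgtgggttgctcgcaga
The match begins 130 bases before the start, on the opposite strand to the motif letters ATGCAAAT. Both strands were searched. Prkcb also held an octamer, as did 1.74% of the 32851 promoters of the whole table. Fewer than 80% of the measured receptor genes had a promoter in the table, the share set for such a check, so no count over them is given. A match is a description of letters and shows no binding.

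MHC class II genes were the next in spread. Of 13 measured genes, 11 were above 12 and 2 between 8 and 12, with a median SD of 0.0870 and no range above 1. H2-Aa, the alpha chain of I-A, stood at 15.01, 15.05, 15.07 and 14.97, and H2-Ab1, its beta chain, at 14.91, 14.91, 14.92 and 14.91. The 4 arrays were nearly equal. Ciita, the coactivator that switches on the class II genes, stood at 12.81, 12.54, 12.39 and 12.63, lowest on replicate 3. Helper molecules govern peptide loading. H2-DMa and H2-DMb2, which promote loading, were at 12.62 ± 0.06 and 13.42 ± 0.05, and H2-Oa and H2-Ob, which restrain it, at 12.64 ± 0.16 and 13.97 ± 0.10. A protease and a reductase that process antigen were bright as well, Ctss at 14.41 ± 0.09 and Ifi30 at 14.15 ± 0.03. Marchf1, the ubiquitin ligase that removes class II from the surface, was at 11.88 ± 0.28, the widest spread of the list.

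The second class II isotype, I-E, gave a split reading. H2-Eb1, its beta chain, stood at 11.71, 11.53, 11.27 and 11.43, highest on replicate 1. H2-Ea, its alpha chain, stood at 12.20, 12.10, 12.37 and 11.99 with its brightest probe set, while its dimmest probe set averaged 2.25. RefSeq lists H2-Ea as a transcribed pseudogene in the C57BL/6J assembly. Whether the FVB mice used here make an I-E alpha chain was not tested, and a probe set value does not show it. The cause of the gap between the probe sets was not tested.

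The promoters of H2-Aa and H2-Eb1 are shown because class II promoters are known for a cyclic AMP response-like X2 box followed by a Y box that holds CCAAT. Both are from RefSeq, build GRCm38.p6, 5′ to 3′, H2-Aa at chr17:34287774-34288073 on the minus strand and H2-Eb1 at chr17:34305617-34305916 on the plus strand. Capitals mark CCAAT on either strand (ATTGG where it lies on the other strand) and, in H2-Aa, the letters TGACGTCA.
H2-Aa: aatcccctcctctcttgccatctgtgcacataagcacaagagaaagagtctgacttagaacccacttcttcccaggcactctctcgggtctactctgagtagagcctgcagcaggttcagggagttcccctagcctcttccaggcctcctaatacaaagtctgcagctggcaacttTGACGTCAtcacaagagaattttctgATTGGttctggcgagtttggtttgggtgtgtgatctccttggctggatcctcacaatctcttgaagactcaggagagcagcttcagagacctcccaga
H2-Eb1: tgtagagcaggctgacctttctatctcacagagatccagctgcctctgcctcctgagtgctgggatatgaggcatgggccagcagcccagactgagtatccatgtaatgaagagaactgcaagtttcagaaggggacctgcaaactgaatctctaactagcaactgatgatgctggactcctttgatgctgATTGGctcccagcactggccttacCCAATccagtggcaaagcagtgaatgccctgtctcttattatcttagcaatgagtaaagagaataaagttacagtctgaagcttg
In H2-Aa the CRE letters begin 74 bases before the start and the CCAAT match 48 bases before it. In H2-Eb1 the CCAAT matches begin 59 and 35 bases before the start. CCAAT was found in 37.4% of the promoters of the whole table and TGACGTCA in 1.79%. Too few of the class II genes had a promoter in the table for a count over them.

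The transcription factors that define B cells were above 8 with a single exception among 24 measured. Pax5, which commits cells to the B lineage, stood at 10.39, 10.17, 10.53 and 10.18. Ebf1, its early partner, stood at 11.91, 11.87, 11.95 and 12.03. Neither gene had an array far from the others. Above 12 were 13 factors, among them Ets1 (14.10 ± 0.12), Pou2af1 (13.95 ± 0.04), the coactivator OBF1, Spib (13.77 ± 0.13) and Irf8 (12.81 ± 0.04). Bach2, which holds B cells back from plasma cell fate, stood at 12.76, 12.15, 12.35 and 12.21, highest on replicate 1. Prdm1, which drives that fate and which these repressors oppose, was the exception at 6.13, 5.66, 5.06 and 5.76, with its lowest value on replicate 3. Xbp1, the secretory factor, was nevertheless at 12.47 ± 0.08 and Irf4 at 11.39 ± 0.05.

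Genes of follicular B cells were bright. All 7 measured were above 8 and 5 above 12, with Cxcr5 at 13.30, 13.25, 13.51 and 13.43 and Fcer2a, which encodes the IgE receptor CD23, at 12.91, 12.997, 13.21 and 13.23. For Fcer2a replicates 3 and 4 were slightly above the others. Klf2, which keeps lymphocytes quiescent and guides their trafficking, stood at 12.71, 12.32, 12.96 and 12.62, and Ccr7, a receptor for the T cell zone, was at 11.56 ± 0.13.

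Marginal zone and B1 genes gave a mixed picture. Of 17 measured, 6 were above 12, 6 at 8 to 12, 2 at 4 to 8 and 3 not above 4. Notch2 and its target Dtx1, which drive marginal zone fate, were at 12.63 ± 0.13 and 12.38 ± 0.10, and Plac8 at 13.73 ± 0.09. Cd1d1, the lipid-presenting molecule of marginal zone cells, stood at 12.52, 12.65, 11.89 and 11.997, with replicates 1 and 2 above 3 and 4. Cd9 stood at 9.10, 10.39, 9.88 and 10.02 and was lowest on replicate 1; platelets also carry CD9, and the platelet genes described below were lowest on the same array, whose part in this was not tested. The B1 cell genes Cd5, Zbtb32 and Bhlhe41 were not above 4, at 2.88, 3.57 and 2.19. Spn, which encodes the B1 marker CD43, stood at 5.56, 5.94, 6.40 and 6.80, lowest on replicate 1 and highest on replicate 4.

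Several genes of B cell precursors were at the lowest value. Rag1, Rag2 and Dntt, which rearrange immunoglobulin genes, Vpreb1 of the surrogate light chain, Il7r and Erg were at 2.17 on all 4 arrays. Of 14 genes measured 7 were not above 4, 4 at 4 to 8 and 2 at 8 to 12, and Cd24a (14.15 ± 0.14), which mature B cells also express, was the only 1 above 12. Cd93, a marker of transitional B cells that other leukocytes share, stood at 5.81, 6.28, 6.91 and 7.40, and Sox4 at 5.52, 6.10, 7.14 and 7.33. Both were lowest on replicate 1 and highest on replicate 4.

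Germinal centre genes lay mostly between 4 and 8, in 9 of 11 cases, with Bcl6 at 10.49 ± 0.11 the only member above 8. The list mean was 6.70, 6.44, 5.67 and 6.05, highest on replicate 1 and lowest on replicate 3. A range above 1 was seen in 5 members, against 2.08% of all genes and 8.10% of genes at 4 to 8. Basp1 stood at 7.35, 7.07, 5.42 and 5.82, Rgs13, a damper of chemokine signals in germinal centre cells, at 5.82, 6.06, 4.62 and 4.56, and Gcsam at 4.30, 3.80, 2.46 and 2.75. For all 3 genes replicates 1 and 2 lay above 3 and 4.

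Plasma cell genes were spread over all classes, with 3 of 15 above 12, 6 at 8 to 12, 5 at 4 to 8 and 1 not above 4. Jchain, which joins IgM and IgA into polymers, stood at 11.85, 11.72, 12.64 and 13.05. Replicates 3 and 4 were above 1 and 2. Igha, the constant region of IgA, stood at 11.19, 11.20, 11.22 and 12.84, and only replicate 4 stood apart. Igk-V21, a kappa variable gene, stood at 5.32, 5.26, 6.05 and 6.36, again higher on replicates 3 and 4. Mzb1, a chaperone of immunoglobulin that resting marginal zone cells share, was at 13.17 ± 0.10. Sdc1, the surface marker CD138, was at 5.93 ± 0.29 and Tnfrsf17, the plasma cell survival receptor BCMA, at 2.46 on all 4 arrays.

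The immunoglobulin genes, a group assembled after values were seen, covered 19 genes, of which 7 were above 12, 6 at 8 to 12, 4 at 4 to 8 and 2 not above 4. Ighv14-2, a heavy chain variable gene, stood at 15.53, 15.57, 15.56 and 15.53 and was among the 20 highest levels of all genes. Igkv8-30 was at 14.67 ± 0.06 and Iglv1 at 12.42 ± 0.17. Members of variable gene families share sequence, so a probe set may read several of them.

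Receptors that place B cells in tissue were all above 8, with 13 of 15 at 8 to 12. Cnr2, the cannabinoid receptor of marginal zone cells, was at 12.96 ± 0.06, S1pr1, the receptor that brings lymphocytes into blood, at 11.47 ± 0.15, and Gpr183, which steers B cells to the follicle edge, at 11.80 ± 0.06. Cxcr4, the receptor for CXCL12, stood at 11.95, 11.34, 12.35 and 11.22 and was the only member with a range above 1. Ccr6, the receptor for CCL20, stood at 12.18, 12.14, 11.69 and 11.98.

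Of 14 receptors and ligands for survival and T cell help, 9 were above 8. Tnfrsf13c, the BAFF receptor on which mature B cells depend, stood at 12.95, 13.43, 13.43 and 13.30, lowest on replicate 1, and Tnfrsf13b, its relative TACI, was at 13.01 ± 0.06. Cd40, which receives T cell help, was at 11.51 ± 0.07 and Ltb, a lymphotoxin that builds follicles, at 13.72 ± 0.06. Cd27, a memory cell marker in humans, was at 2.24 ± 0.05, and Fas, the death receptor of activated cells, stood at 5.62, 5.62, 4.75 and 5.62, lowest on replicate 3.

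Inhibitory coreceptors and their phosphatases restrain the receptor, and 8 of 13 were above 12. Cd22, a sialic acid-binding inhibitor, was at 13.41 ± 0.04, Siglecg, its relative, at 13.17 ± 0.12 and Fcgr2b, the inhibitory Fc receptor, at 12.17 ± 0.11. Ptpn6, the phosphatase SHP-1 that these recruit, was at 14.07 ± 0.07 and Inpp5d, the lipid phosphatase SHIP1, at 12.26 ± 0.06. Btla stood at 13.47, 13.24, 12.83 and 13.46, lowest on replicate 3. Pirb stood at 7.48, 7.98, 8.40 and 8.45 and was lowest on replicate 1; myeloid cells share this receptor.

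Toll-like receptors spanned the classes. Tlr1 was at 12.61 ± 0.08 and Ly86, the MD-1 partner of CD180, at 13.35 ± 0.06, while Tlr9 was at 4.77 ± 0.14 and Tlr5 at 2.17 on all arrays. Unc93b1, which carries the nucleic acid-sensing receptors to endosomes, was at 11.70 ± 0.11. Tlr7, a sensor of RNA, stood at 7.29, 7.25, 7.37 and 8.87, and replicate 4 alone was higher.

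The BCL2 family, which governs cell survival, was spread over the classes, and most quiescence genes were above 8. Of 13 BCL2 family genes 6 were above 8, 5 at 4 to 8 and 2 not above 4. Mcl1, a survival protein, was at 13.81 ± 0.09, Bcl2 at 11.09 ± 0.26 and Bcl2l1, which encodes BCL-XL, at 5.31 ± 0.04. The death-promoting Bcl2l11, which encodes BIM, was at 9.82 ± 0.16 and Bid at 11.24 ± 0.18, while Bik and Hrk were at 2.17. Of 14 quiescence genes 12 were above 8, with the antiproliferative Btg1 at 14.61 ± 0.08, Pdcd4 at 12.10 ± 0.09, Foxo1 at 11.51 ± 0.10 and Cdkn1b, which encodes p27, at 11.58 ± 0.11. Cdkn1a, which encodes p21 and answers p53, was at 2.52 ± 0.03.

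Immediate early genes, which respond within minutes to stimulation or handling, were split. Of 22 genes 15 were above 8 and 4 not above 4. Nfkbia, the NF-kappaB inhibitor, was at 13.62 ± 0.04, Ier5 at 12.63 ± 0.11 and Egr3 at 10.64 ± 0.30, while Fosb, Ier3, Atf3 and Nr4a2 were at 2.17, 2.17, 2.20 and 2.24. Replicate 1 was the lowest array for 14 of the 22 genes, and the list means were 8.34, 8.72, 8.61 and 8.64. The same array was the lowest for 7 of 34 complex I genes and 17 of 75 mitochondrial ribosomal protein genes. Nr4a1, a report of receptor signalling, stood at 7.98, 9.14, 8.48 and 8.76, Ier2 at 10.56, 11.69, 10.79 and 11.15 and Fos at 3.61, 4.83, 5.34 and 4.91. For these 3 genes replicate 1 was the lowest.

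Among 15 glycolysis genes 10 were above 8, with Aldoa at 12.75 ± 0.03, Ldha at 11.81 ± 0.06 and Pkm at 11.39 ± 0.08, and the median SD was 0.0656. Eno2, the neuronal enolase, was at 2.17 and Eno3 at 8.62 ± 0.06.

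The miR-155 locus and its described targets were measured at their wild-type baseline. Mir155hg, the host transcript of the microRNA, stood at 6.42, 5.60, 5.12 and 5.02, highest on replicate 1. Of 18 described targets measured, 13 were above 8, 4 at 4 to 8 and 1 not above 4. Spi1, which encodes PU.1, stood at 10.45, 10.73, 11.00 and 10.69, Jarid2 was at 10.04 ± 0.04, Tab2 at 11.90 ± 0.12 and Socs1, a brake on cytokine signals, at 2.17 on all arrays. Picalm and Ripk1 were not analysed here.

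The 20 highest levels belonged mostly to translation and the cytoskeleton. They were led by Rps29 (16.26 ± 0.04), Ly6e (15.97 ± 0.07), a surface protein of lymphocytes, and Rpl13a (15.91 ± 0.05), and their SDs lay between 0.0199 and 0.110. Of these, 13 encode proteins of the ribosome: Rps29, Rpl13a, Rpl37a, Rplp2, Rps28, Rps7, Rps20, Rps18, Rps3a1, Rplp0, Rps10, Rps4x and Rps24. The others were Ly6e, Tpt1, Ighv14-2, H2-D1 of MHC class I, the elongation factor gene Eef1a1, Coro1a, which organises actin in leukocytes, and Tmsb10, which binds actin monomers at 15.36 ± 0.05. Their values on the 4 arrays were close together throughout.

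Housekeeping complexes were bright as wholes. Of 49 cytosolic ribosomal protein genes 35 were above 12 and 4 not above 4, and these 4 were Rpl39l and Rpl3l, paralogs known from testis and muscle, Rps4l, listed as a pseudogene, and Rps16, whose only probe set of its own was at 2.17. Of 39 proteasome genes 36 were above 8, of 34 complex I genes 31, and of 75 mitochondrial ribosomal protein genes 72. Of 9 chaperonin genes 8 were above 8, and Cct6b, the testis form, was at 2.17. Of 17 cytochrome c oxidase genes 9 were above 8 and 7 not above 4, and those 7 were the tissue forms Cox4i2, Cox6a2, Cox6b2, Cox7a1, Cox7b2, Cox8b and Cox8c.

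The GIMAP family, GTPases of lymphocyte survival added after values were seen, had all 8 members above 8 and 3 above 12. Gimap4 stood at 13.84, 13.80, 13.01 and 13.21, with replicates 1 and 2 above 3 and 4. Classical MHC class I genes were bright, with H2-D1 at 15.64, 15.52, 15.51 and 15.37 and H2-K1 at 14.71 ± 0.12. Among the 11 class I genes, also gathered after values were seen, 5 were not above 4.

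Gene families of other organs were at background. All 38 olfactory receptors, all 20 beta defensins and all 17 prolactin family genes were not above 4, nor were the 12 liver and 14 testis genes measured. Of 48 keratins 46 and of 33 Hox genes 31 were not above 4, with Hoxb3 at 5.78 and Hoxb4 at 5.06. Vmn2r84, a vomeronasal receptor gene by its annotation, stood at 7.40, 8.22, 7.50 and 8.54, and 29 of the 31 vomeronasal receptor genes were not above 4. Among 70 cytochrome P450 genes 62 were not above 4, and Cyp4f18, which inactivates leukotriene B4 in leukocytes, stood at 12.11, 11.91, 12.36 and 12.21. Ryr1, the calcium channel of muscle, was at 7.63 ± 0.29 and Mbp, the myelin gene whose locus also makes transcripts in blood cells, at 9.57 ± 0.15.

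The choice of probe set bears on every class. Among 9010 genes with several probe sets the median gap between the brightest and the dimmest was 1.79, and it passed 4 in 2720 (30.2%). The brightest and dimmest agreed on the class in 50.1%. Of 479 genes above 12 with another probe set, 123 had a dimmest probe set not above 4. The largest gaps were those of Tpt1 (13.59), Rps18 (13.48), H2-D1 (13.34), Rps20 (13.32), Rps4x (13.28) and Rps24 (13.20). Just inside the limit of 12 lay Atrx, Adam10 and Akirin1 and just outside it Trim59, Cggbp1 and Ccr6 (levels from 11.997 for Ccr6 to 12.005 for Akirin1).

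Wide variation between the arrays was seen in few genes. A range above 1 over the 4 arrays was seen in 378 genes (2.08%), of which 71 had a level not above 4, 239 at 4 to 8, 64 at 8 to 12 and 4 above 12. A range above 2 was seen in 72. By which arrays lay above the middle of the gene's range, 62 genes were low on replicate 3 alone, 59 were low on replicate 1 alone, 58 were high on replicates 1 and 2, 42 high on replicate 1 alone, 39 high on replicates 3 and 4, 27 high on replicate 4 alone and 20 high on replicate 3 alone. Replicate 1 lay more than 1 below all other arrays in 43 genes, replicate 3 in 27, replicate 2 in 5 and replicate 4 in 0. Replicate 4 lay more than 1 above all others in 25 genes.

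**Figure D3:**
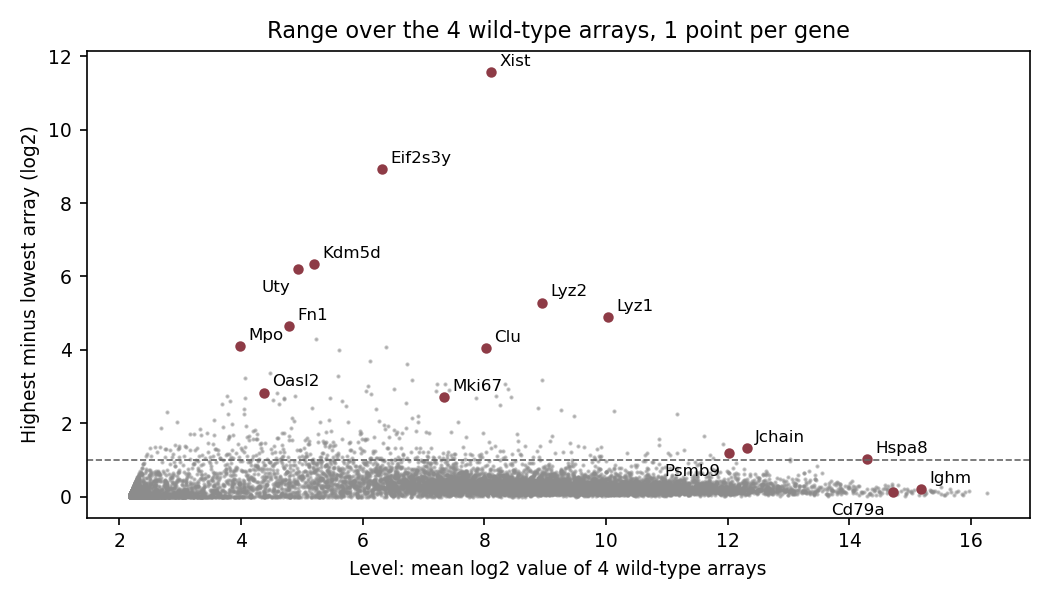
Range over the 4 arrays (highest minus lowest log2 value) against level, 1 point per gene, with a range of 1 dashed and 16 genes labelled. Most genes lie under the line; Xist has the widest range, 11.57, and Cd79a and Ighm lie near 0.

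The widest ranges belonged to sex-linked genes. Xist, the RNA that coats the inactive X chromosome, stood at 13.79, 13.61, 2.22 and 2.81. The Y-linked Kdm5d and Uty, both histone demethylase genes, were at 2.17 on replicates 1 and 2 and at 7.99 and 8.50, and 7.05 and 8.37, on replicates 3 and 4. Replicates 1 and 2 thus carried Xist without Y-linked RNA and replicates 3 and 4 the reverse. The X-linked Eif2s3x and Kdm6a, known to escape inactivation, stood at 12.05, 12.10, 11.35 and 11.46, and at 10.07, 10.27, 9.24 and 9.67. Both were lower on replicates 3 and 4. The labels give no sex, so any gene that is high on replicates 1 and 2 or on 3 and 4 cannot be told apart from sex here.

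Platelet genes were low on replicate 1. Of 10 markers measured 9 were above 4 and 8 had a range above 1, and all 9 that varied were lowest on replicate 1. The list mean was 5.71, 7.54, 7.11 and 7.27. Pf4, a platelet chemokine, stood at 7.79, 10.14, 9.49 and 9.62 and Ppbp, another, at 8.59, 10.91, 10.39 and 10.64. Itga2b, the alpha chain of the fibrinogen receptor, stood at 4.66, 7.84, 7.27 and 7.44, and Gp1bb, of the von Willebrand factor receptor, at 5.17, 8.18, 7.80 and 8.24. In each case replicate 1 lay at least 1 below the others, which were close together. Gp6 was at 2.52 on all arrays.

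Other genes with this pattern were Clu (5.31, 9.35, 8.57 and 8.87), the myosin light chain gene Myl9 (4.35, 7.96, 7.21 and 7.41), Gas2l1 (2.78, 6.78, 6.21 and 6.67) and Ctla2b (3.74, 7.81, 6.77 and 7.21). They were picked for their range, and platelets are known to hold several of their products. Replicate 2 was the highest array for each of them, as it was for 8 of the 10 platelet markers. What share of this RNA came from platelets was not tested.

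The mean of the macrophage list and that of the granulocyte list were highest on replicate 4, which was the highest array for 6 of 17 and 6 of 16 markers. Replicate 4 was also the highest array for 10 of 34 complex I genes and 19 of 75 mitochondrial ribosomal protein genes. Of 17 macrophage markers 10 were not above 4, among them Cd14, C1qa, C1qc, Cd163 and Marco at 2.17 on all arrays, the list mean was 3.79, 3.85, 4.07 and 4.30, and 2 members had a range above 1. Lyz2, the lysozyme of myeloid cells, stood at 6.17, 8.16, 10.002 and 11.45, the widest range of any gene that is not sex-linked. Lyz1, a close paralog whose probe set may read both, stood at 7.55, 9.16, 10.99 and 12.44. Fn1, fibronectin, stood at 2.98, 2.98, 5.56 and 7.63. Replicate 4 was the highest for all 3 genes and replicates 1 and 2 the lowest. Lyz1 and Fn1 are not in the macrophage list and were picked for their range. Csf1r, the receptor that macrophages depend on, moved less, at 5.02, 5.05, 5.52 and 5.70. Cd68, the other member with a range above 1, stood at 5.75, 5.32, 5.52 and 6.58. Among the remaining markers above 4, Spic lay at 8 to 12 and Adgre1, Fcgr3 and Hmox1 at 4 to 8.

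Of 16 granulocyte markers 13 were not above 4, with Camp and Cxcr2 at 2.17, the list mean was 2.68, 2.65, 2.70 and 3.22, and 3 members had a range above 1. Mpo, myeloperoxidase of early granulocytes, stood at 2.88, 2.85, 3.23 and 6.95, Elane, neutrophil elastase, at 4.17, 4.17, 4.17 and 5.46 and Prtn3, proteinase 3, at 3.68, 3.68, 3.75 and 5.30. These 3 were raised on replicate 4 only, while the late granule genes S100a9, Ngp and Mmp8 stayed between 2.17 and 2.39 on every array. Ctsg, which encodes cathepsin G, had a level not above 4 and no range above 1. F13a1, which platelets and monocytes share, stood at 2.78, 5.002, 6.06 and 7.07, lowest on replicate 1 and highest on replicate 4. Ifitm3, an antiviral membrane protein that myeloid cells hold, stood at 5.74, 5.45, 6.48 and 8.37. F13a1 was picked for its range. Ifitm3 came from a list gathered after values were seen, all 20 members of which were highest on replicate 4. Neither gene is separate evidence of a rise on that array.

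**Figure D4:**
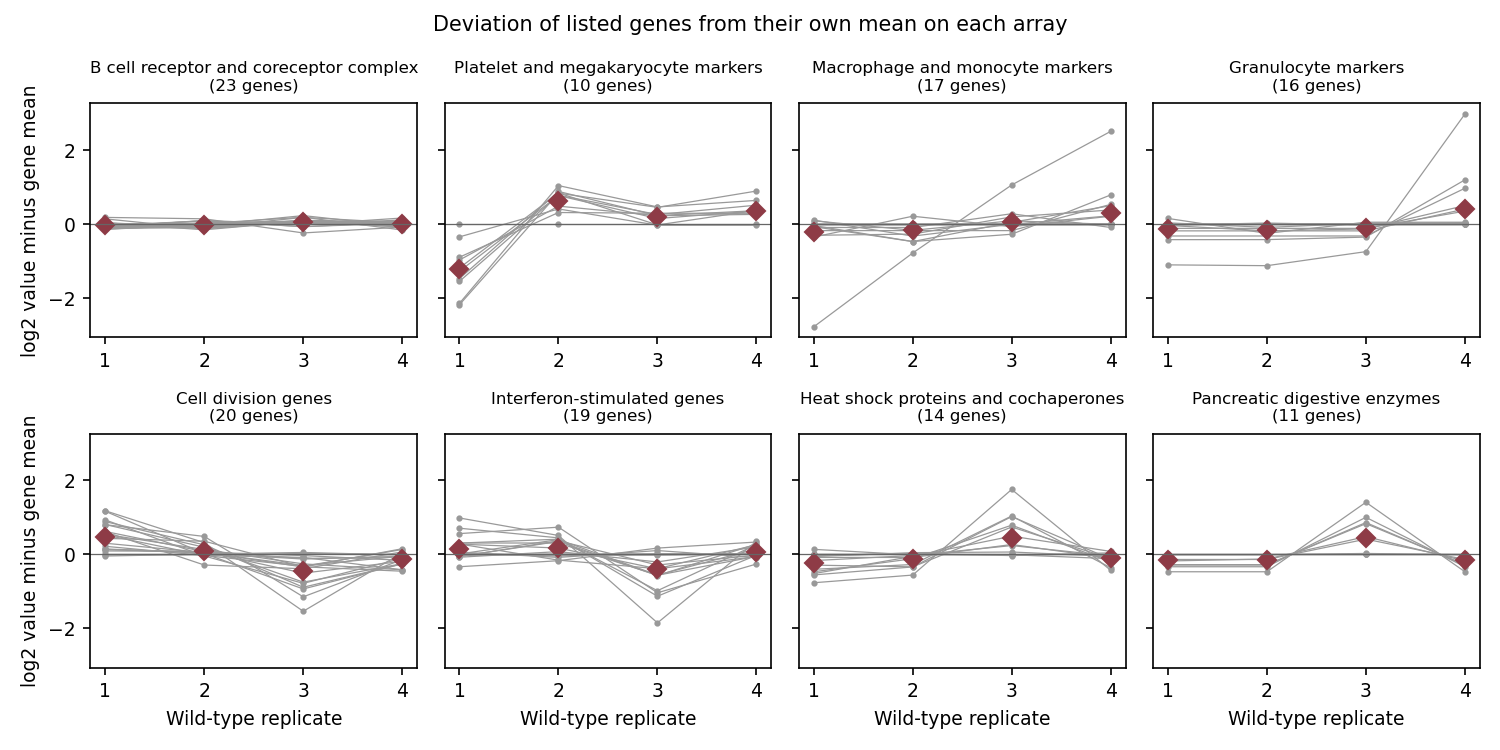
Deviation of each listed gene from its own mean (log2) on each of the 4 wild-type arrays, grey lines joining the values of a gene and red diamonds the list average, for 8 lists; replicates have no order. B cell receptor genes stay near 0, platelet genes drop on replicate 1, Mpo, Elane and Prtn3 rise above the other granulocyte genes on replicate 4, 13 of 20 cell division and 11 of 19 interferon-stimulated genes are lowest on replicate 3, and 9 of 14 heat shock and 7 of 11 pancreatic genes are highest there. The last 2 lists were made after values were seen. Replicate 3 is also the lowest array for 21 of 34 complex I genes, which are not drawn.

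Cell division genes were highest on replicate 1 and lowest on replicate 3. Of 20 genes 11 lay at 4 to 8 and 5 above 8, and the list mean was 7.06, 6.67, 6.15 and 6.46. Replicate 1 was the highest array for 17 of the 20 and replicate 3 the lowest for 13. Such shares were not counted over all genes. Among complex I genes replicate 1 was the highest for 14 of 34 and replicate 3 the lowest for 21. Their mean moved little, at 10.61, 10.63, 10.56 and 10.65. Among mitochondrial ribosomal protein genes the counts were 26 and 35 of 75. Mki67, the nuclear antigen of cycling cells, stood at 8.51, 7.65, 5.80 and 7.38, Top2a, the topoisomerase that untangles chromosomes, at 7.93, 7.30, 6.15 and 6.79, and Cdk1, the kinase that triggers mitosis, at 6.61, 5.47, 4.52 and 5.20. Ccnb2, a cyclin that activates CDK1, stood at 6.46, 5.85, 4.91 and 5.41. All 4 genes were highest on replicate 1, then on replicates 2 and 4, and lowest on replicate 3. Mcm5, a subunit of the replicative helicase, was at 11.74 ± 0.12 and Pcna, the sliding clamp of replication and repair, at 12.70 ± 0.04, while Rrm2, which makes deoxyribonucleotides, stood at 8.41, 7.87, 7.29 and 7.61. The germinal centre list, which shares Mki67 and Aurkb with this one, was highest and lowest on the same arrays.

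The promoters of Cdk1, Ccnb2 and Top2a are shown because these genes moved together and because promoters of mitotic genes are known for repeated CCAAT boxes with a CHR element near the start. They are from RefSeq, build GRCm38.p6, all on the minus strand, 5′ to 3′, at chr10:69352863-69353162, chr9:70421505-70421804 and chr11:99024140-99024439. Capitals mark CCAAT or ATTGG and the CHR letters TTTGAA or their complement TTCAAA, a motif added after values were seen.
Cdk1: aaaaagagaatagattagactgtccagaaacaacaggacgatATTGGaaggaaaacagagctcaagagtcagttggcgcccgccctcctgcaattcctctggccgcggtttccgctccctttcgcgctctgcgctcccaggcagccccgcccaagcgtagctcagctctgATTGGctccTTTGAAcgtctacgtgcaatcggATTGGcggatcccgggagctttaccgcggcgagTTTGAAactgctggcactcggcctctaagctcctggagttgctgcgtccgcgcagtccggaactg
Ccnb2: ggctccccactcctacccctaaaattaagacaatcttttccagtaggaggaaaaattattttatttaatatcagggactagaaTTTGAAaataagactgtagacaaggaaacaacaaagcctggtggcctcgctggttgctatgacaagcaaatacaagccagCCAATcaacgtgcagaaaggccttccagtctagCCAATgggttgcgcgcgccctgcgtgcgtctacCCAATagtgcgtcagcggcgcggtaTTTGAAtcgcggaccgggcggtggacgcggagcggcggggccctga
Top2a: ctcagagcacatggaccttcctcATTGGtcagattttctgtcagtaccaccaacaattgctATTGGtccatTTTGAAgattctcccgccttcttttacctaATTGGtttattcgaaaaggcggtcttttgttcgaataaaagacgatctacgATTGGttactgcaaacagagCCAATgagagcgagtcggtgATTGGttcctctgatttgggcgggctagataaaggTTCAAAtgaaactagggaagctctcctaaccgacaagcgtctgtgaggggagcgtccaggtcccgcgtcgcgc
Cdk1 and Ccnb2 hold 3 CCAAT matches each and Top2a 6. A CHR match begins 15 bases before the start in Cdk1, 4 bases after it in Ccnb2 and 23 bases before it in Top2a. CCAAT was found in 14 of 16 cell division genes with a promoter in the table against 37.4% of the whole table, and TTTGAA in 9 of 16 against 17.9%. These matches are letters, and no factor was measured at them.

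Interferon-stimulated genes were low and dipped on replicate 3. Of 19 genes 11 lay at 4 to 8, 6 were not above 4 and 2 were above 8, and the list mean was 5.47, 5.49, 4.91 and 5.39. Ifit2, which blocks translation of viral RNA, stood at 7.07, 6.81, 5.23 and 6.34, Ifit3 at 5.69, 5.79, 4.40 and 5.65 and Oasl2 at 5.36, 4.89, 2.52 and 4.73. Replicate 3 lay apart from the others for each. Mx1, an antiviral GTPase, differed from them at 4.74, 4.91, 5.25 and 5.41, and Rsad2, Oas3 and Ifit1 were at or near 2.17 throughout.

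Genes that interferon gamma induces had a related pattern, in a list of 17 gathered after values were seen. Replicate 3 was the lowest array for 15 of them and 9 had a range above 1. It was also the lowest for 21 of 34 complex I genes, none of which had a range above 1. Nlrc5, the coactivator of MHC class I genes, stood at 10.33, 10.38, 8.18 and 8.99, Psmb9, an immunoproteasome subunit, at 12.57, 12.42, 11.39 and 11.69 and Tap1, the peptide transporter, at 11.23, 11.08, 10.03 and 10.34. Igtp, a GTPase against intracellular pathogens, stood at 10.21, 10.01, 8.86 and 9.45. For all 4 genes replicates 1 and 2 lay above 3 and 4. B2m, the light chain of MHC class I, moved little, at 14.72, 14.75, 14.48 and 14.56.

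The mean of the heat shock list, also made after values were seen, was highest on replicate 3, at 9.11, 9.22, 9.80 and 9.24. Hspa1b, the stress-induced HSP70, stood at 2.92, 3.13, 5.45 and 3.26. Dnaja1, a cochaperone, stood at 11.53, 11.66, 12.97 and 11.57, Hsph1 at 10.31, 10.53, 11.89 and 10.74 and Dnajb1 at 10.80, 11.16, 12.06 and 11.07. Replicate 3 was the highest array for 9 of the 14 genes measured, and 6 had a range above 1. The same array was the highest for 7 of 9 chaperonin genes and 2 of 34 complex I genes. Hspa8, the constitutive HSP70, was among the widest of the genes above 12, at 13.78, 14.24, 14.79 and 14.38. Hspa5, the chaperone of the endoplasmic reticulum, moved little (13.82 ± 0.06), as did Hspe1 (11.97 ± 0.10). Hspa1a, Hspb1 and Bag3 had levels not above 4, and none of them had a range above 1.

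Other genes above 12 with the widest ranges were Erdr1 (13.37, 13.26, 13.09 and 12.40), lowest on replicate 4, B3gnt5 (12.61, 12.08, 11.70 and 12.13), a glycosyltransferase gene of B cells, Ms4a4c (12.34, 12.39, 11.60 and 12.03) and Dynll1 (13.02, 13.24, 13.72 and 13.39), a dynein light chain. Only Jchain, Psmb9, Hspa8 and a kappa variable gene of the 635 genes above 12 had a range above 1. The 15 widest ranges of all genes also held 9330175E14Rik (7.68, 7.12, 3.999 and 5.68) and Hacd4 (2.73, 6.11, 3.86 and 5.18).

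Promoters of the classes were compared by their letters. Of 16055 protein-coding genes 13268 (82.6%) had a promoter in the RefSeq table (GRCm38.p6), but among genes not above 4 the share was 79.5%, under the 80% set for such a check, so that class is void and is left out. The ratio of observed to expected CpG had a median of 0.748 in 2299 genes at 4 to 8, 0.817 in 4743 genes at 8 to 12 and 0.802 in 506 genes above 12. A ratio above 0.6, the usual sign of a CpG island, was found in 71.5%, 81.8% and 70.9%.

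Single motifs, searched on both strands, differed by class. The TATA box letters TATAAA were found in 5.92% of promoters at 4 to 8, 5.82% at 8 to 12 and 11.3% above 12. Among all 13268 measured protein-coding genes with a promoter, those not above 4 included, the share was 9.68%. In the whole table of 32851 promoters, a different set, it was 13.6%. The ETS element CCGGAAGT was found in 8.003%, 11.3% and 7.11% (6.37% of measured genes and 3.89% of the whole table). The YY1 core AAGATGGCG was found in 3.00%, 4.66% and 1.98% (2.45% of measured genes and 1.40% of the whole table). The PU.1 element GAGGAAGT was found in 2.61%, 3.42% and 4.94% (2.83% of measured genes and 3.20% of the whole table). It was found in 5 of 13 promoters of inhibitory coreceptor genes, those of Btla, Cd5, Cd72, Inpp5d and Pirb. That is 1 list of many searched for many motifs. Granulocyte genes held the same letters in 5 of 15 promoters and B cell transcription factors in 0 of 21. The ETS and PU.1 letters share their GGAAGT end. The octamer was at 1.09%, 1.497% and 1.38%, near its share of measured genes (1.48%) and of the whole table (1.74%).

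**Figure D5:**
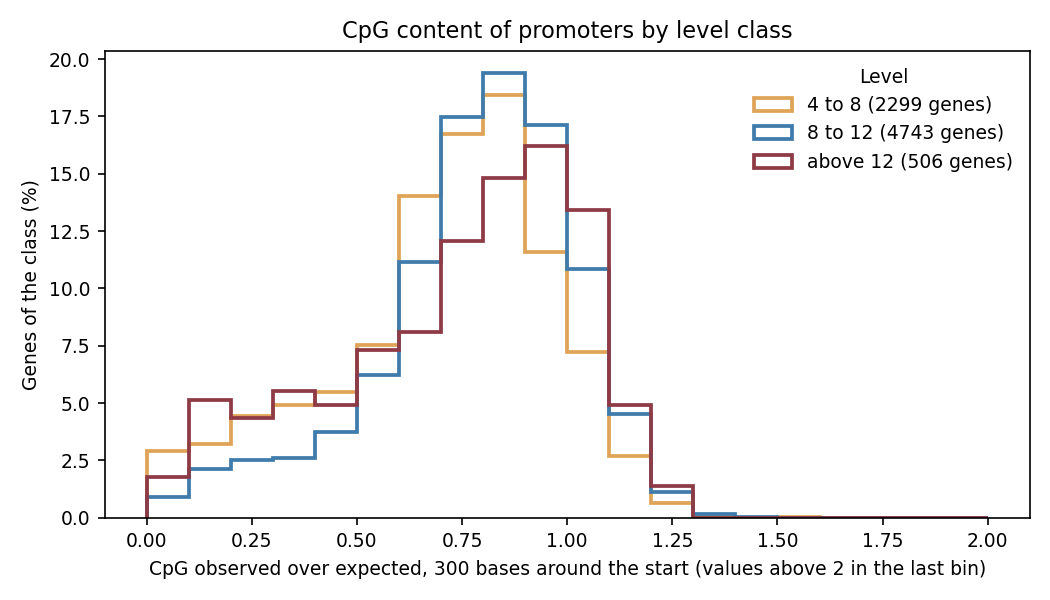
Distribution of the CpG ratio (observed over expected, 300 bases around the start) for genes at 4 to 8, 8 to 12 and above 12, as a percentage of each class. The curves overlap widely, and the medians are 0.748, 0.817 and 0.802.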

How the data were processed

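The authors deposited log2 values; the submitters' processing notes name GCRMA, without a version, as the method the authors used. GCRMA subtracts a background modelled on probe sequence, aligns the arrays and combines the probes of a set, which presses low values together at 2.17. Whether the transgenic arrays were processed together with the wild-type arrays, and so bear on their values, was not tested. Precision is limited by having only 4 arrays. Of 45101 probe sets, 34945 named 1 gene in the platform annotation, 932 named several, 9160 named none and 64 were controls. Symbols were looked up by Entrez identifier for 34741 (0 changed). The brightest probe set by the mean of the 4 arrays stood for a gene. Python 3.11.15, pandas 2.3.3 and numpy 2.4.6 were used, and the steps were tested on simulated data. Genes were named by rule: the 20 highest levels, the 15 widest ranges, the 10 widest above 12, the 6 widest probe set gaps, 3 genes on each side of 12, and members of gene lists and families. Members and lists were chosen with earlier results of these data known; 5 lists, 3 families and the CHR motif were added after the values were seen. Promoters are the first listed start of a gene, chromosome 18 left out. Alternatives changed the probe set, summary, class limits and normalization, and left out each array.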

Additional observations from a re-analysis of the deposited data

Results flagged for a closer look

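Among 263 genes named and 37 list means, an array standing far from the other 3 (Dixon's test at the 95% level) was found for 30 genes and 3 lists. Chance flags about 1 in 20 groups, and genes at background often have the same value on 3 arrays, which any small change then flags. Of the 9363 genes with a level above 4, 1125 had such an array, which was replicate 3 in 433, replicate 1 in 315, replicate 4 in 207 and replicate 2 in 170.

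On replicate 4 Mpo, Elane, Prtn3, Igha and Tlr7 stood apart, as did the mean of the granulocyte list but not that of the macrophage list. Mpo was at 6.95 (median of the others 2.88), Elane at 5.46, Prtn3 at 5.30 and the mean of the granulocyte list at 3.22 (others 2.68). Igha was at 12.84 (others 11.20) and Tlr7 at 8.87 (others 7.29). Hoxb4 at 5.15, Cox8b at 2.42 and Eomes at 2.17 differed from the other arrays by less than 0.3 and were flagged because those were nearly equal.

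On replicate 3 some heat shock and pancreatic genes stood apart. Dnaja1 was at 12.97 (others 11.57) and Hspa1b at 5.45 (others 3.13). Cela3b was at 4.09, Cela1 at 3.54, Clps at 3.50, Prss2 at 3.32, Cela2a at 3.28 and Cpa1, a carboxypeptidase gene, at 2.72, and the mean of the pancreatic list was 2.85 (others 2.24). Ifit3 at 4.40 (others 5.69) and Fas at 4.75 (others 5.62) were lower there. H2-DMa at 12.54, H2-Ab1 at 14.92 and Cd27 at 2.17 differed by little.

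On replicate 1 the platelet genes Gp1bb at 5.17 (others 8.18) and Gas2l1 at 2.78 (others 6.67) were low, as was Lat at 5.82 (others 6.52), and Mmp8 at 2.37 and Zbtb32 at 3.63 differed by little. On replicate 2 Pecam1 was at 10.90 (others 10.64), Cox6a2 at 2.74 (others 2.36), Mzb1 at 13.01 (others 13.22), Cggbp1 at 12.07 (others 11.97) and the mean of the B cell transcription factors at 11.61 (others 11.69). No explanation of these arrays was tested.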

How the results depend on the processing

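No paired analysis was possible because a single group of arrays was described and no test was run. Of 86 recomputed counts and agreement measures, 69 stayed within 1.5 times the value given (for correlations, within 1 SD of the pairs). The class counts turned on the probe set and the limits. Genes above 12 numbered 206 with the dimmest probe set, 302 with the median probe set, and 402 and 994 with all limits raised or lowered by 0.5. Genes at 8 to 12 numbered 3019 with the dimmest probe set. Counting every probe set rather than genes gave 9339 at 8 to 12, 7241 at 4 to 8 and 17482 not above 4. Over genes with a level above 4 the median SD was 0.114, the lowest r 0.983 and the count above 4 on some arrays only 134; with the dimmest probe set the median SD was 0.000302. The lowest Spearman correlation was 0.988. With each array left out in turn, genes above 12 numbered 632 to 638, the median SD was 0.0314 to 0.0428, the lowest r 0.997 to 0.998 and genes on some arrays only 180 to 201. Genes with a range above 1 numbered 217 without wild-type replicate 1, 232 without replicate 3 and up to 317 otherwise; fewer arrays give a narrower range by construction. Of 391 levels of named genes and list means, 233 moved by more than 1 SD with the dimmest probe set, 80 of 384 without _s_at and _x_at probe sets, and 7 with quantile normalization of the wild-type arrays alone. The platelet, macrophage, granulocyte, cell division, germinal centre and interferon lists kept the array of highest and that of lowest mean under each of the 3 settings tried for them (dimmest probe set, no _s_at or _x_at probe sets, quantile normalization). In several other lists one or both changed: with the dimmest probe set the highest and lowest arrays turned from replicates 1 and 2 to 3 and 4 for B cell transcription factors and from 4 and 1 to 1 and 3 for sex-linked genes. A background level of 5 bears only on the count above background on some arrays (250). Levels of dim genes are limited by the lowest value of 2.17.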

Other observations

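Genes of pancreatic digestive enzymes were read on replicate 3. The list was made after their values were seen, and its 11 measured members all had a level not above 4. Cela3b, a pancreatic elastase, stood at 2.22, 2.22, 4.09 and 2.22, Clps, which encodes the cofactor of pancreatic lipase, at 2.17, 2.17, 3.50 and 2.17, and Prss2, a trypsinogen gene, at 2.17, 2.17, 3.32 and 2.17. Cela2a and Cela1, other elastases, stood at 3.28 and 3.54 on replicate 3 and at no more than 2.94 on the rest. Replicate 3 was the highest array for 7 of the 11 genes, while Ctrb1, Cel and Reg1 were at 2.17 on all 4. These values lie at or near background, and the source of this RNA was not tested. The mean of the heat shock list was highest on the same array.

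Some large families were counted by class. Of 333 zinc finger genes named Zfp, 251 were above 4 and 4 above 12. Of 319 solute carriers, 148 were above 4 and 4 above 12. Of 47 translation initiation factors, 46 were above 4 and 15 above 12. By chromosome, the share of genes above 4 was 59.1% on chromosome 17, which holds the MHC, 44.4% on the X chromosome and 3 of 9 genes on the Y chromosome.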
